A study of Mus musculus with 2 samples.

Results

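The genes described are 10 components of the Wnt pathway: the receptor gene Lgr5, its ligand gene Rspo3, the Wnt inhibitors Dkk2 and Apcdd1, the receptors Fzd4 and Fzd6, the co-receptors Lrp5 and Lrp6, and the target and effector genes Axin2 and Lef1. They were chosen by symbol among the 54838 gene rows of the files, and each symbol was found in both libraries. The data are UMI counts from 10x single-cell RNA sequencing of adrenal gland endothelial cells of female mice aged 12 weeks, sorted as viable CD31+ CD45- cells. One library comes from wild type (WT) mice, and the other from mice labelled VEGF/LysM. LysM is the gene Lyz2, active in macrophages and other myeloid cells, and the series addresses the effect of macrophage-derived VEGF-A on the types of endothelial cell in this gland. No source used here gives the allele, the Cre line or the number of mice behind each library, and no further treatment is named for either. Paired values below give WT first and VEGF/LysM second.

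Wnt proteins bind a frizzled receptor together with LRP5 or LRP6 and thereby keep beta-catenin from being degraded, so that it can enter the nucleus and act with TCF and LEF factors. R-spondins bind LGR4, LGR5 or LGR6 and remove the ligases ZNRF3 and RNF43 that clear frizzled receptors from the surface, which raises sensitivity to Wnt. DKK proteins bind LRP5 and LRP6 and block them. In the adrenal gland, R-spondin made by the capsule sustains Wnt signalling in the outer cortex, and in retinal and brain vessels FZD4 and its partners build and keep the vessel barrier.

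Of the members graded most steeply over vessel types, Dkk2, Axin2 and Lef1 have a promoter entry in RefSeq, and the 250 bases before each start are shown because these genes were high in the same cells. They lie on the plus strand of GRCm38.p6 at chr3:132085042-132085291 (Dkk2), chr11:108920099-108920348 (Axin2) and chr3:131110047-131110296 (Lef1). Capitals mark each GGGCGG and TATAAA on either strand.
Dkk2: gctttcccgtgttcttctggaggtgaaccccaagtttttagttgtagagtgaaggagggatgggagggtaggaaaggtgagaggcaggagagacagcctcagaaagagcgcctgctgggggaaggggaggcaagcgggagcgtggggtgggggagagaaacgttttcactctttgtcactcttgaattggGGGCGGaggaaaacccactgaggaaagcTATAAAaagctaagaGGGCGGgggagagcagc
Axin2: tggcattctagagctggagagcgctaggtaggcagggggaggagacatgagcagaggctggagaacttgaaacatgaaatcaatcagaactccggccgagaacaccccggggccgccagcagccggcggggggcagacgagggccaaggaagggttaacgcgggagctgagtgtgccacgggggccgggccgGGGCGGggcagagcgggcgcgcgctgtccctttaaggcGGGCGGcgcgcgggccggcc
Lef1: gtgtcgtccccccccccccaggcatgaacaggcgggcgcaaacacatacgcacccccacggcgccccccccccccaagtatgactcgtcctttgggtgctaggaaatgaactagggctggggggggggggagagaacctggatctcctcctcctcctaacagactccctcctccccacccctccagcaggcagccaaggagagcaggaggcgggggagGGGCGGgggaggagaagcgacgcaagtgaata
Dkk2 and Axin2 each held 2 copies of GGGCGG and Lef1 held 1, a word present in 33.0% of 27025 mouse promoters of the same length. Dkk2 alone of the 3 held TATAAA, 32 bases before its start, and 13% of all promoters held it. The TCF and LEF words searched on both strands, which begin with CTTTG and end in AA, AT, TA or TT, were in none of these windows and in 14.9% of all promoters, and the Fzd4 window (chr7:89404116-89404365) held none either. Of the 10 members, 4 had an entry, and Lgr5, Rspo3, Fzd6, Lrp5, Lrp6 and Apcdd1 had none.

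The members lie on 8 chromosomes of GRCm38 (GENCODE M21). Lgr5 spans chromosome 10 from 115450311 to 115587780 on the minus strand. Rspo3 lies on the same chromosome from 29452416 to 29535867, and Dkk2 (132085292 to 132180304) and Lef1 (131110471 to 131224356) are both on the plus strand of chromosome 3. Axin2 spans chromosome 11 from 108920349 to 108950783. All are annotated as protein coding. Lgr5, Rspo3, Fzd6, Axin2 and Lef1 overlap other annotated genes, among them A930009A15Rik on the other strand of Lgr5, and no source used here says how reads in such overlaps were assigned.

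After filtering, 5683 WT endothelial cells (7412279 UMIs, median 1154 per cell) and 3528 VEGF/LysM endothelial cells (8892533 UMIs, median 2284.5) remained, and the libraries shared 8 barcodes of retained cells. Clustering without any gene of the Wnt lists gave 17 endothelial types and 4 other types, each named from a marker list or by a leading gene. With 1 library per group there is no replicate check and no test. Levels are CPM, the UMIs of a gene per 1000000 UMIs summed over the cells of a type, and the ranges in parentheses are 95% intervals that cover counting error only. A gene is measured where it has at least 50 UMIs in the cells compared, and called higher or lower where the whole interval of its log2 ratio lies beyond 0.32 in that direction. The cells of a type are not replicates, and types differ by the genes that drew them, so levels between types are descriptions.

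Lgr5, the receptor for R-spondins and a stem cell marker of the gut, was held almost wholly by 1 vessel type. This type was led by Tspan8, Npnt, Scin and Epha6. Of the marker lists, the arterial one had the highest mean log2 enrichment in it over all other cells, 2.90. Sox17 was at 1145 CPM and 1282 CPM and the connexin gene Gja4 at 400.2 and 378 CPM. Capillary-like cells had 120 and 127 CPM and 9.30 and 5.54 CPM of these. Some other arterial markers were higher elsewhere. Efnb2 was at 384 and 321 CPM against 643 and 501 CPM in the Npr3 fenestrated-like type. Dll4 was at 256 and 148 CPM against 330 and 351 CPM there. Hey1 was at 52.5 and 33.1 CPM against 225 and 142 CPM in a second arterial-like type, described below. The type led by Tspan8 is called Tspan8 arterial-like here, with 253 WT cells (4.45% of endothelial cells) and 252 VEGF/LysM cells (7.14%). It held 161 of the 168 endothelial Lgr5 UMIs in WT and 387 of the 395 in VEGF/LysM. Its Lgr5 level was 528 CPM (450 to 616) and 609 CPM (550 to 673), against 0.985 and 0.969 CPM in all other endothelial cells. The ratio was 536-fold (254 to 1355) in WT and 629-fold (316 to 1468) in VEGF/LysM.

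A second arterial-like type, led by Col8a1, Stmn2, Fbln2 and Fbln5, had hardly any Lgr5. It counted 79 WT and 64 VEGF/LysM cells, had Sox17 at 441 and 443 CPM and Gja4 at 188 and 177 CPM, and had 1 Lgr5 UMI in WT (9.39 CPM, 0.238 to 52.3). In VEGF/LysM it had 0, which allows up to 17.7 CPM. It also carried markers of continuous capillaries, with Cd36 at 5841 and 7107 CPM, against 115 and 96.1 CPM in the Tspan8 type and 7591 and 9602 CPM in capillary-like cells. The 2 arterial-like types thus differed in capillary markers as well as in Lgr5. Capillary-like cells, led by Car4 and Cd36, had 0 Lgr5 UMIs in 783 WT cells, which allows up to 3.10 CPM, and the Tspan8 type was at least 170-fold higher in WT. In VEGF/LysM 729 capillary-like cells had 4 Lgr5 UMIs (2.46 CPM).
Of the 14 endothelial types with at least 40 cells in each library, 10 had no Lgr5 UMI in WT and 9 had none in VEGF/LysM. Below the Tspan8 type no neighbours in the order of levels differed beyond counting error in either library.

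Within the Tspan8 type Lgr5 was spread unevenly over cells. In WT 200 of the 253 cells had no Lgr5 UMI, 23 had 1, 12 had 2, and the 18 cells with 3 or more held 114 of the 161 UMIs. In VEGF/LysM 173 of 252 cells had none, and 38 cells with 3 or more held 332 of the 387 UMIs, with 45 and 35 UMIs in the highest cells. The counting intervals on Lgr5 are therefore narrower than its spread over cells. A UMI was found in 20.9% of cells in WT (53 of 253, 16.1 to 26.5) and in 31.3% in VEGF/LysM (79 of 252, 25.7 to 37.5), at median depths of 1090 and 2151.5 UMIs. With each cell thinned to 1000 UMIs and shallower cells left out, the shares were 21.2% (31 of 146) and 23.7% (53 of 224). Capillary-like cells had a share of 0 in WT and 0.274% in VEGF/LysM unthinned, at median depths of 908 and 1711 UMIs. The level of free RNA was not estimated.

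Cells of the Tspan8 type with and without an Lgr5 UMI carried Dkk2, Lef1, Axin2, Lrp6, Fzd6 and Fzd4 at shares whose intervals overlapped, and the remaining members were not compared. After thinning, Dkk2 was found in 67.7% of WT cells with Lgr5 and in 67.8% of those without. In VEGF/LysM the shares were 69.8% and 62.6%. Lef1 was found in 58.1% and 47.0% in WT and in 50.9% and 42.1% in VEGF/LysM. The WT shares with Lgr5 rest on 31 cells, so a moderate difference was not detectable at this depth.

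The summed level of 9 myeloid markers was also higher in the Tspan8 type than in endothelial cells as a whole. It was 88.6 CPM and 139 CPM, against 14.3 and 23.1 CPM over all endothelial cells. Only 2 (Lyz2 and C1qb) and 4 (Lyz2, C1qa, C1qb and Cd68) of the 9 markers had a UMI in this type. The level of each marker is not given here. Csf1r, Adgre1, Ptprc, Tyrobp and C1qc had none in either library, and the part of myeloid RNA in the values of this type was not tested. The myeloid-like cells themselves, 90 in WT and 87 in VEGF/LysM, had 1 Lgr5 UMI in each library. Markers of fibroblasts and capsule (6) and of chromaffin cells (5) were at 0 in the Tspan8 type in both libraries, and 3 and 5 of 8 adrenocortical markers had a UMI, summing to 39.4 and 20.5 CPM.

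Rspo3, the R-spondin ligand of the LGR receptors, was near absent from the sorted cells. All endothelial cells together held 3 Rspo3 UMIs in WT (0.405 CPM, 0.0835 to 1.18) and 2 in VEGF/LysM (0.225 CPM, 0.0272 to 0.812). In each library 1 of them was in the Tspan8 type, and in VEGF/LysM the other was in the Npr3 fenestrated-like type. The other 2 WT UMIs were in 13 cells led by Dnase1l3, Stab2 and Clec4g. The adrenocortical-like cells that passed the sort held 3 Rspo3 UMIs in 32 WT cells and 2 in 40 VEGF/LysM cells. No endothelial type can be named as a source of Rspo3 from so few counts, and no ratio is given.

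The other genes of this step were rare too, apart from one ligase. Rspo1 had 1 and 2 UMIs in all endothelial cells, Rspo2 had 0 and 2, Rspo4 had 0 in both, Lgr6 had 0 and 1, and Rnf43 had 1 in each. Lgr4 stood at 12.8 CPM and 8.88 CPM and was about equally low in the Tspan8 type (13.1 and 7.87 CPM, 4 and 5 UMIs). Znrf3, the ligase that R-spondin and LGR receptors remove, and itself a Wnt target, was at 108 CPM in the Tspan8 type in WT against 20.96 CPM in other endothelial cells. In VEGF/LysM it was at 97.6 against 15.99 CPM. The ratios were 5.16-fold (3.43 to 7.57) and 6.11-fold (4.44 to 8.32). Znrf3 was thus called higher in the Tspan8 type in both libraries, as were 3.58% of all genes measured in both. Nothing is read from the call of Lgr5, for the reason given below.

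Dkk2, a secreted inhibitor that binds LRP6, had its highest level in the same Tspan8 type but reached further. It stood there at 1771 CPM (1625 to 1927) and 1753 CPM (1651 to 1859). Next came the Npr3 fenestrated-like type, led by Gm14226, AC167229.1, Hmcn1, Npr3 and Mal, at 841 CPM (783 to 902) and 848 CPM (800 to 898). Both steps of this order lay beyond counting error in both libraries.
Ier3 cells followed at 403 and 315 CPM and Adamtsl2 cells at 271 and 342 CPM. Tip-like cells, with Apln and Kcne3 among their leading genes, had 116 and 107 CPM, and Oit3 cells 54.4 and 39.3 CPM. Capillary-like cells had 33.1 CPM (22.6 to 46.7) and 7.997 CPM (4.26 to 13.7), from 32 and 13 UMIs.
The Col8a1 arterial-like type had 2 Dkk2 UMIs in WT (18.8 CPM) and 21 in VEGF/LysM (124 CPM), and the latter came from 2 of its 64 cells.

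The Tspan8 type held 26.4% of all endothelial Dkk2 UMIs in WT and 37.1% in VEGF/LysM, while it held 4.11% and 7.14% of all endothelial UMIs. The Npr3 fenestrated-like type held 38.2% and 38.9%. After thinning, a Dkk2 UMI was found in 67.8% and 64.3% of the Tspan8 cells, in 45.3% and 41.4% of the Npr3 fenestrated-like cells and in 2.08% and 0.156% of the capillary-like cells. Without thinning, the shares were 66.8% and 76.2%, 45.4% and 59.9%, and 2.55% and 1.10%. Cells with Dkk2 were thus common in both of the leading types.

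Apcdd1, a membrane inhibitor that binds Wnt and LRP proteins and is itself a Wnt target, was sparse. Endothelial cells held 11 UMIs in WT and 29 in VEGF/LysM. Of these, 4 and 18 were in the Tspan8 type (13.1 CPM, 3.58 to 33.6, and 28.3 CPM, 16.8 to 44.8), and 4 and 5 in the Npr3 fenestrated-like type. Other endothelial cells had 0.985 and 1.33 CPM. The gene did not reach 50 UMIs and is left out of the counts below.

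**Figure D1:**
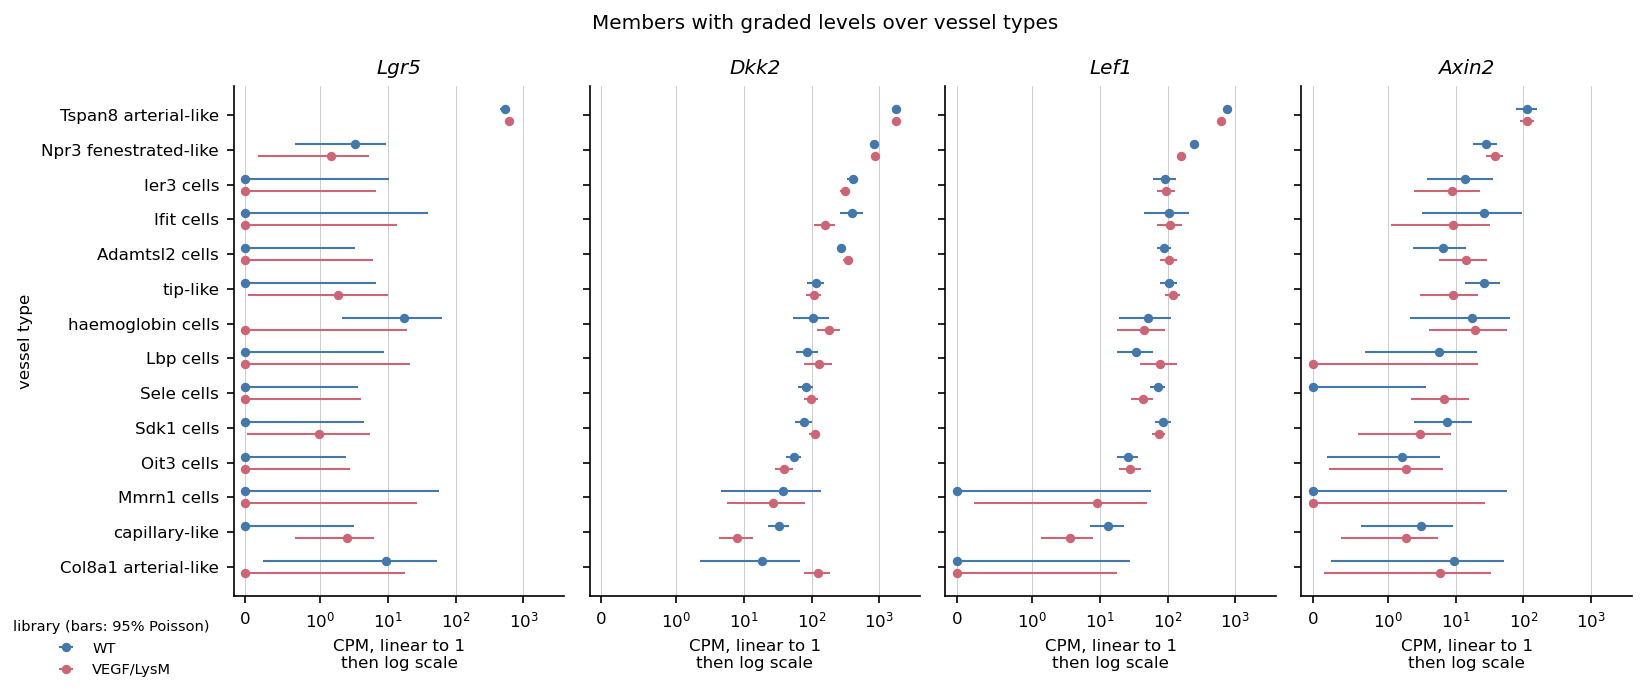
Level of Lgr5, Dkk2, Lef1 and Axin2 (CPM, linear to 1 and then on a log scale) in the 14 endothelial types with at least 40 cells in each library, WT in blue and VEGF/LysM in red, with 95% Poisson intervals. Types are ordered by Dkk2 in WT, and the Tspan8 arterial-like type at the top has the highest point in every panel in both libraries.

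Axin2, a scaffold of the complex that degrades beta-catenin and a widely used readout of Wnt signalling, was highest in the same type as Dkk2. It stood at 112 CPM (77.2 to 156) and 113 CPM (88.7 to 143) in the Tspan8 type. The Npr3 fenestrated-like type had 28.0 CPM (18.3 to 41.0) and 37.8 CPM (28.2 to 49.6). Tip-like cells had 26.2 CPM (12 UMIs), close to the Npr3 fenestrated-like type in WT, and 9.08 CPM (5 UMIs) in VEGF/LysM. Capillary-like cells had 3 UMIs in each library (3.10 and 1.85 CPM). Below the Tspan8 and Npr3 fenestrated-like types no neighbours in either order differed beyond counting error.

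Lef1, a transcription factor that acts with beta-catenin, was at 764 CPM (669 to 869) and 611 CPM (552 to 675) in the Tspan8 type. The Npr3 fenestrated-like type had 242 CPM (212 to 276) and 160 CPM (140 to 183), and tip-like cells had 105 and 120 CPM. Oit3 cells had 26.4 and 28.3 CPM and capillary-like cells 13.4 and 3.69 CPM. The Col8a1 arterial-like type had no Lef1 UMI in either library, so that, against the limit of 3 counts per library, the Tspan8 type was at least 27.1-fold higher in WT and at least 34.5-fold higher in VEGF/LysM. A Lef1 UMI was found after thinning in 49.3% and 44.2% of Tspan8 cells and in 1.19% and 0.156% of capillary-like cells (unthinned 52.2%, 64.7%, 1.40% and 0.549%).

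The frizzled and LRP genes had UMIs in each of the 14 types in both libraries. Fzd4, the receptor for Norrin and several Wnt proteins, lay between 188 and 337 CPM in WT and between 157 and 295 CPM in VEGF/LysM over the 14 types, and no neighbours in either order differed beyond counting error. Types further apart did, since in VEGF/LysM the interval of Lbp cells (98.1 to 237) lay below that of capillary-like cells (265 to 318). In the Tspan8 type Fzd4 was at 295 CPM (237 to 363) and 236 CPM (200 to 277), 1.06-fold (0.850 to 1.31) and 0.887-fold (0.747 to 1.05) of other endothelial cells.
Fzd6, a frizzled linked to planar polarity, was graded. It was highest in the lymphatic-marker type led by Pcdh7 and Mmrn1 (263 and 190 CPM), the Tspan8 type (259 CPM, 205 to 323, and 173 CPM, 142 to 209) and the Col8a1 type (207 and 148 CPM), neighbours in the order that did not differ beyond counting error. Capillary-like cells had 100.2 and 103 CPM, and Sele cells had 10.8 and 14.7 CPM. Unlike Lgr5 and Lef1, Fzd6 had UMIs in both arterial-like types and in capillary-like cells in each library.

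Lrp6, the main co-receptor of Wnt signalling, stood at 239 CPM (188 to 301) and 173 CPM (142 to 209) in the Tspan8 type. Other endothelial cells had 139 and 122 CPM, which gave 1.73-fold (1.34 to 2.19), called higher, and 1.42-fold (1.16 to 1.73), not called. Lrp5, the co-receptor that also serves Norrin, went the other way. It was at 39.4 CPM (20.3 to 68.8, 12 UMIs) and 67.7 CPM (49.0 to 91.2) in the Tspan8 type, the lowest of the 14 types in each, against 116 and 109 CPM in other endothelial cells. It was called lower in WT (0.339-fold, 0.174 to 0.595) and not in VEGF/LysM (0.623-fold, 0.448 to 0.847). Whether these ratios differ between the libraries was not tested.

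**Figure D2:**
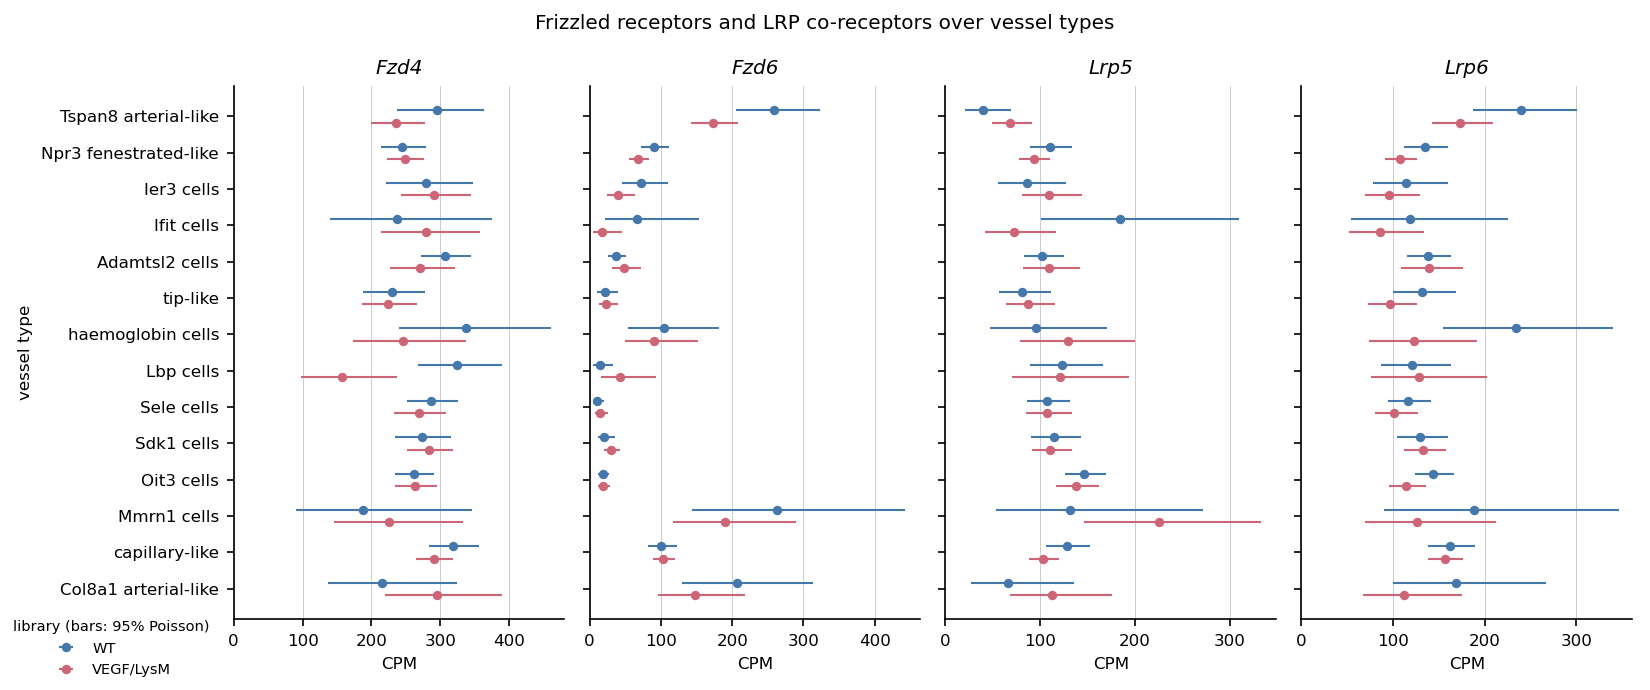
Level of Fzd4, Fzd6, Lrp5 and Lrp6 (CPM, linear scale) in the same 14 endothelial types, WT in blue and VEGF/LysM in red, with 95% Poisson intervals. Fzd4 lies between 188 and 337 CPM in WT, Fzd6 is high in both arterial-like types and the Mmrn1 type, and Lrp5 is lowest in the Tspan8 arterial-like type.

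Lgr5 was called higher in the Tspan8 type than in all other endothelial cells, but the choice of members named it in arterial-type cells and it reached 50 UMIs only through the Tspan8 type, so nothing is read from its call. Of the 7 other members measured, 4 were called higher in both libraries: Dkk2, Fzd6, Axin2 and Lef1. None was called lower in both. Of the 10443 genes measured in both libraries, 3.58% were called higher in both and 4.5% lower. In WT alone 5 of the 7 were higher and 1 was lower, against 4.74% and 5.53% of genes. In VEGF/LysM alone 4 were higher and 0 were lower, against 5.72% and 7.97%. The members were chosen with earlier results of these data known, so no conclusion is drawn from their count beside these shares. The ratios were 8.37-fold (7.57 to 9.24) and 7.69-fold (7.13 to 8.28) for Dkk2, 12.2-fold (7.81 to 18.7) and 10.6-fold (7.68 to 14.7) for Axin2, 9.46-fold (8.09 to 11.04) and 8.85-fold (7.76 to 10.1) for Lef1, and 5.22-fold (4.04 to 6.68) and 3.16-fold (2.54 to 3.90) for Fzd6.
Against the Col8a1 arterial-like type alone, Lgr5, Dkk2 and Lef1 were called higher in both libraries and 0 members lower, where 7.64% of 1780 genes were higher and 6.85% lower. In WT the Col8a1 type had 1, 2 and 0 UMIs of these genes, so they were measured only through the Tspan8 type and could only be called higher, and nothing is read from their count. Fzd6 was not called (log2 0.33, -0.37 to 1.08, and 0.23, -0.41 to 0.92).

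Lgr5, Dkk2, Axin2 and Lef1 were called lower in capillary-like cells than in other endothelial cells, a group that holds the Tspan8 type, in both libraries. Lgr5 had enough UMIs to be measured only through the Tspan8 type, so it could only be called lower here. Nothing is read from its call. Other types were as low, with Lgr5 at 0 in 10 of the 14 types in WT and Axin2 at 1.60 CPM in Oit3 cells beside 3.10 CPM in capillary-like cells. In capillary-like cells Fzd6 was called higher (1.93-fold, 1.52 to 2.42, and 1.90-fold, 1.58 to 2.28). Over all genes, 9.05% were lower in both libraries and 5.84% were higher. Dkk2 was at 33.1 against 312 CPM in WT and Lef1 at 13.4 against 123 CPM. Adrenocortical markers summed to 284 and 213 CPM in these cells, against 39.4 and 20.5 CPM in the Tspan8 type, and their part in these values was not tested.

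Of the 91 other pathway genes with a row in the files, 34 were measured in WT and 38 in VEGF/LysM in the contrast of the Tspan8 type with other endothelial cells. In WT 3 were called higher and 1 lower, where 4.74% and 5.53% of all measured genes were. In VEGF/LysM 6 were higher and 3 lower, where 5.72% and 7.97% of all measured genes were. Called higher in both were Znrf3, Adgra2 and Reck, and Ccnd1 was lower in both. Over all genes, 3.58% were higher and 4.5% lower in both. These genes are named because they were called, after their values were seen.
Reck and Adgra2 encode the pair of membrane proteins that let brain endothelial cells respond to Wnt7. Reck was at 256 CPM (202 to 319) and 310.2 CPM (268 to 357) in the Tspan8 type, against 23.1 and 18.3 CPM in other endothelial cells, and had no UMI in the Col8a1 type. Adgra2 was at 59.0 and 64.6 CPM against 23.8 and 17.6 CPM.
Ccnd1, the cyclin D1 gene, was at 134 and 64.6 CPM against 337 and 263 CPM, so this classical target went against Axin2 and Lef1. Tnfrsf19, another target, was at 83.5 CPM in VEGF/LysM against 0.727 CPM (115-fold, 49.4 to 327). It had too few UMIs to be measured in WT. In VEGF/LysM it had 53 UMIs in the Tspan8 type and 6 in other endothelial cells. Tnfrsf19 was thus measured only through the Tspan8 type and could only be called higher. Nothing is read from its call, which is among the 6 called higher in VEGF/LysM.

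By role, none of the 12 genes of the cytoplasmic relay and destruction complex was called in either library, and their median log2 ratio was -0.19 in WT and -0.04 in VEGF/LysM. Its most abundant gene, Csnk1a1, stood at 486 and 459 CPM over all endothelial cells. Of the 22 ligand and secretion genes, 2 were measured, none was called, and Wls, the carrier that brings Wnt proteins to the surface, was the most abundant at 127 and 120 CPM. In the Tspan8 type Wls was at 138 and 121 CPM, close to the 126 and 119 CPM of other endothelial cells. The ligand Wnt4 had 43 and 48 endothelial UMIs, and 1 in each library was in the Tspan8 type.
With the members left out, the highest receptor or receptor partner was Tspan12, the tetraspanin that aids FZD4 (245 and 223 CPM). Likewise without the members, the highest nuclear partner was Tcf7l1 (174 and 175 CPM) and the highest target was Cldn5 (592 and 693 CPM). Kremen1 was the highest of the other inhibitors (39.0 and 34.5 CPM), below the member Dkk2 (276 and 337 CPM).

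**Figure D3:**
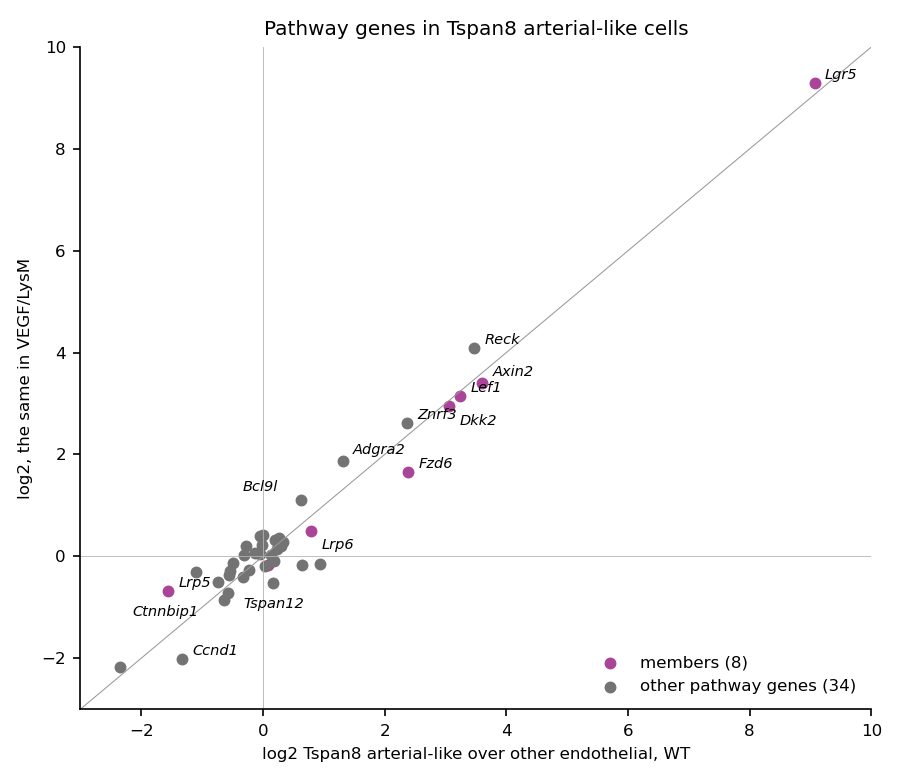
Log2 ratio of the Tspan8 arterial-like type over other endothelial cells, WT on the horizontal and VEGF/LysM on the vertical axis, for the 8 members (purple) and 34 other pathway genes (grey) measured in both libraries, with the line of equal values. Names mark genes called in at least 1 library, and Lgr5 lies at 9.07 and 9.30, apart from Reck, Axin2, Lef1 and Dkk2.

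Between the libraries, Lgr5 was the only member called in endothelial cells as a whole. It rose from 22.7 CPM (19.4 to 26.4) in WT to 44.4 CPM (40.1 to 49.0) in VEGF/LysM, and the log2 ratio was 0.97 (0.71 to 1.24). Of 12280 genes measured, 2.14% were called higher and 1.37% lower. Dkk2 went from 276 to 337 CPM (log2 0.29, 0.21 to 0.37) and Axin2 from 13.4 to 17.99 CPM (log2 0.43, 0.06 to 0.81), neither called. Fzd4 (279 and 264 CPM), Fzd6 (58.3 and 63.3 CPM), Lrp5 (113 and 106 CPM), Lrp6 (143 and 126 CPM) and Lef1 (109 and 108 CPM) had log2 ratios between -0.18 and 0.12. The direction of Fzd6 turned with the processing, at -0.19 when both libraries were given the same mix of types and 0.44 in thinned cells. Median depth per cell was higher in VEGF/LysM, as given above.

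The share of cells of the Tspan8 type moved with the Lgr5 level. This type made up 4.45% of endothelial cells in WT and 7.14% in VEGF/LysM. Within it Lgr5 was at 528 and 609 CPM, a log2 ratio of 0.21 (-0.06 to 0.48) that was not called, and 0.10 without the 2 cells with the most Lgr5 UMIs in each library. Outside it Lgr5 had 7 UMIs in WT and 8 in VEGF/LysM. When both libraries were given the same mix of types, the log2 ratio over all endothelial cells was 0.19 (-0.07 to 0.45) for Lgr5 and -0.0016 for Dkk2. With 1 library per group, a share that differs between conditions cannot be told apart from one that differs between 2 dissociations.

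Within the Tspan8 type none of the 8 measured members was called between the libraries, where 1.04% of 4053 genes were called higher and 0.864% lower. Dkk2 had a log2 ratio of -0.02 (-0.16 to 0.14) and Axin2 of 0.02 (-0.58 to 0.66). Lef1 stood lower in VEGF/LysM by its estimate (log2 -0.32, -0.56 to -0.08), as did Fzd6 (-0.58, -1.01 to -0.15) and Lrp6 (-0.47, -0.91 to -0.02), and these intervals reached inside the limit of 0.32. Lrp5 had 0.78 (-0.17 to 1.84) from 12 and 43 UMIs.
Of the 20 other pathway genes measured there, Ccnd1 was called lower (134 and 64.6 CPM, log2 -1.06, -1.72 to -0.40) and Cldn5, the claudin of tight junctions, higher (594 and 906 CPM, log2 0.61, 0.37 to 0.86).

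**Figure D4:**
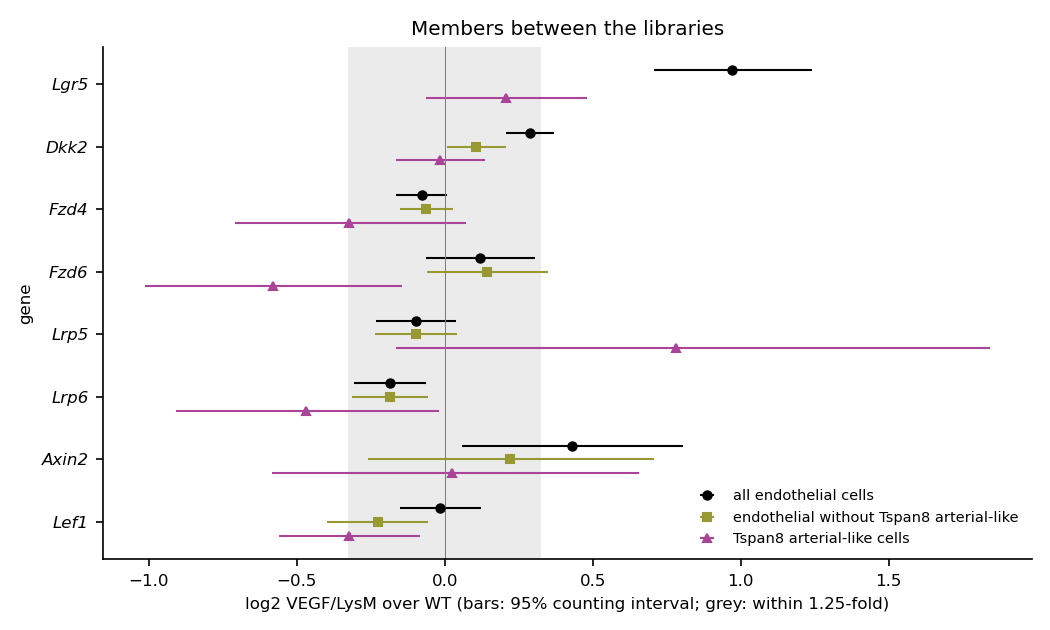
Log2 ratio of VEGF/LysM over WT with 95% counting intervals for the 8 measured members in all endothelial cells (black circles), in those outside the Tspan8 arterial-like type (olive squares) and within that type (purple triangles). Grey shows log2 ratios within 0.32 of 0, Lgr5 has too few UMIs outside the type to be drawn there, and only its value in all endothelial cells lies wholly outside the grey.

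In 10 types with at least 100 cells in each library, 53 of the 100 pairs of a member and a type were measured, 0 were called higher and 2 were called lower. Over all 53059 measured pairs of a gene and a type, 0.969% were called higher and 0.81% lower. Lef1 in the Npr3 fenestrated-like type was at 242 CPM and 160 CPM (log2 -0.60, -0.87 to -0.32), where 0.45% of 7117 genes were called lower. Fzd4 in Lbp cells was at 324 and 157 CPM (log2 -1.05), from 113 and 22 UMIs, where 1.12% of 2242 genes were called lower. Under 9 other ways to draw or filter the types, the Lef1 ratio stayed between -0.68 and -0.33 and the call was kept in 3. The Fzd4 ratio had a value in 1 of them, -1.04, where the call was kept. Dkk2 in the Npr3 fenestrated-like type was at 841 and 848 CPM (log2 0.01, -0.12 to 0.14), and over 8 measured types its ratio was above 0 in 4 and below 0 in 4. Dkk2 and Lef1 had too few UMIs to be measured in capillary-like and Lbp cells, so neither could be called there. In capillary-like cells Dkk2 was at 33.1 and 7.997 CPM (log2 -2.05, -3.10 to -1.08), from 32 and 13 UMIs. Lef1 there had a log2 ratio of -1.86 (-3.55 to -0.37), from 13 and 6 UMIs. Both of these intervals lay wholly beyond the call limit. In Lbp cells the log2 ratios were 0.58 (-0.35 to 1.47) and 1.19 (-0.14 to 2.49).

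None of the other 43 pathway genes measured in all endothelial cells was called between the libraries. Their median log2 ratio was -0.13, with 12 above 0 and 31 below, beside -0.03 over all genes. The intervals of 5 lay above 0 and those of 13 below it, none wholly beyond 0.32. Among them were Ccnd1 (329 and 249 CPM, log2 -0.40, -0.49 to -0.32), Lgr4 (12.8 and 8.88 CPM, log2 -0.53, -0.98 to -0.08), Slc2a1 (8.63 and 12.8 CPM, log2 0.57, 0.12 to 1.04) and Cldn5 (0.23, 0.17 to 0.28). The share of all genes whose intervals left out 0 is not given here, so nothing is read from the counts of 5 and 13. Without the Tspan8 type, the median was -0.12 over 41 genes and none was called, where 1.8% of 12078 genes were called higher and 1.23% lower. None of the 7 members measured there was called either, with Dkk2 at 0.11 (0.01 to 0.21) and Lef1 at -0.23 (-0.40 to -0.06).

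Genes whose level over types was most like a member's were ranked by Pearson correlation of log2(CPM + 1) over 26 points, 13 types in each library, among 9042 genes. The points share 2 libraries and their depth. For Lgr5 the nearest were Mllt3 (0.87), March3 (0.86), Prom1 (0.85), Dstyk (0.85) and Tspan8 (0.84), and this list held 2 of the same 5 genes with a pseudocount of 5 CPM and 1 with Spearman's correlation. For Dkk2 they were Mal (0.92), Plat (0.92), AC167229.1 (0.90), Gm14226 (0.89) and Il10rb (0.88), and all 5 were the same under both alternatives. Mal, AC167229.1 and Gm14226 are also leading genes of the Npr3 fenestrated-like type, as Tspan8 and Prom1 are of the Tspan8 type. Lef1 was at 0.76 and Axin2 at 0.73 to Dkk2, ranks 19 and 34, and Lgr5 was at 0.44. Rspo3 had too few UMIs to be ranked.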

How the data were processed

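The authors deposited raw UMI counts per gene and cell barcode, 1 matrix per library. Cell Ranger 7.0.1, Seurat and the mm10 genome are named, per the submitters' processing notes, and the matrix header names Cell Ranger 7.0.0. No source used here names the annotation release or the handling of introns. Of 54838 gene IDs, 54723 matched GENCODE M21. The WT library held 6276 barcodes with 8606348 UMIs and the VEGF/LysM library 3807 with 10323972.

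Barcodes with at least 500 UMIs, 300 genes and at most 15% mitochondrial UMIs were retained, and the barcodes with the highest Scrublet scores were left out (0.8% per 1000 barcodes). Cells were log-normalized, and 2000 variable genes, none from the Wnt lists, 30 principal components and 15 neighbours gave Leiden clusters at resolution 1 (scanpy 1.11.5, python-igraph 0.11.9), without integration. Clusters were named from marker lists, and the names by leading genes were set after the clusters were seen. UMIs summed per type were scaled to CPM, with exact Poisson intervals, exact conditional binomial intervals for ratios and Clopper-Pearson intervals for shares (scipy 1.17.1). Where a count is 0, the limit is 3 counts. The ratio code was tested on simulated data. All 10 members are named. Of the other pathway genes, those called between the libraries and the most abundant gene of each role list are named, and others were named after their values were seen. The members and the pathway lists were chosen with earlier results of these data known.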

Additional observations from a re-analysis of the deposited data

How the results depend on the processing

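Results were recomputed under 21 other settings, of which 4 were chosen after seeing the data. Lgr5 was the 1 member called higher between the libraries under each setting that recomputed this count except 3: with an equal mix of types and without the Tspan8 arterial-like cells 0 members were called higher, and with a limit of 1-fold 3 were higher and 1 was lower. Other pathway genes called higher and lower in all endothelial cells numbered 1 and 1 under the stricter cell filter (1000 UMIs, 500 genes, 10% mitochondrial), 5 and 13 at 1-fold, and 2 and 1 without a gene filter. With at least 10 UMIs 2 were called higher, and in thinned cells and with an equal mix 1 was called lower. The shares over all genes under these settings are not given here, so nothing is read from these counts. Pairs of a member and a type called lower numbered 0 without a cell filter, without doublet removal, in thinned cells and with Wnt genes kept in clustering. They numbered 1 at resolution 0.5, at resolution 2 (where 1 was also called higher, Dkk2 in Adamtsl2 cells) and when clustered on thinned cells. Against the Col8a1 arterial-like type alone, the WT log2 ratio of Lgr5 was 5.81 and 3 members were higher in both libraries. Under the other type alternatives 5 members, Lgr5 included, were higher in both, except 4 in thinned cells, where Axin2 was lost. Of the genes most like Lgr5, 2 remained with a pseudocount of 5 CPM and 1 with Spearman's correlation. Of 311 values for single genes, 17 moved beyond the interval of the value reported, and no called value changed sign. Values that were not called did, such as VEGF/LysM over WT for Fzd6 (-0.19 to 0.44) and Lef1 (-0.28 to 0.09) in all endothelial cells and Axin2 in the Tspan8 type (-0.25 to 0.16). Median-ratio and TMM scaling moved all ratios by 0.05 and 0.06 on the log2 scale. Depth limits Rspo3 and Apcdd1, whose ratios could not be measured. No paired analysis was possible because each group is 1 library.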

Other observations

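A few cells that are not endothelial passed the sort and carried Wnt target genes. The adrenocortical-like cells, 32 in WT and 40 in VEGF/LysM, held Lef1 at 201 CPM (117 to 322) and 180 CPM (132 to 238), and Axin2 at 59.1 CPM (5 UMIs) and 89.9 CPM (24 UMIs). Their Znrf3 level was 260.1 CPM (163 to 394) and 240 CPM (185 to 306), above the 108 and 97.6 CPM of the Tspan8 arterial-like type. Lgr5 had no UMI in these cells, which allows up to 35.5 and 11.2 CPM.

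Capillary-like cells and the Col8a1 arterial-like type differed from the Tspan8 arterial-like type in other pathway genes, chosen after their values were seen. Ctnnbip1, which encodes a protein that keeps beta-catenin from TCF factors, was at 352 and 322 CPM in capillary-like cells, against 63.3 and 66.1 CPM in other endothelial cells. Ctnnb1, the beta-catenin gene, was at 588 and 549 CPM against 343 CPM in both libraries, and Cldn5 was at 1421 and 1813 CPM against 467 and 442 CPM. Wls was at 49.6 and 38.1 CPM against 138 CPM in both. The Col8a1 arterial-like type had Ctnnbip1 at 282 and 171 CPM and Cldn5 at 1183 and 1199 CPM. The Tspan8 type had Ctnnbip1 at 65.6 and 64.6 CPM and Cldn5 at 594 and 906 CPM.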
